A study of Mus musculus with 168 samples.

Results

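The 28 genes described here make, sense and handle cholesterol, and were chosen by name from the pathway, out of 43289 genes in the tables. Earlier results of these data were known when they were chosen. They divide into 8 enzymes of the early pathway (acetyl-CoA to squalene: Acat2, Hmgcs1, Mvk, Pmvk, Mvd, Idi1, Fdps, Fdft1), 10 enzymes of the late pathway (squalene to cholesterol: Sqle, Lss, Cyp51, Tm7sf2, Msmo1, Nsdhl, Hsd17b7, Ebp, Sc5d, Dhcr7) and 10 genes that regulate the pathway or move and convert cholesterol (Srebf1, Srebf2, Scap, Insig1, Insig2, Stard4, Soat1, Nr1h2, Nr1h3, Cyp46a1). The set was named for synthesis and uptake, but none of the 28 is a lipoprotein receptor. All 28 were found in the tables, and each reached 1 TPM in at least 1 cell.

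The study profiled single cells of the aging mouse brain by Smart-seq2, which reads full-length transcripts of individual cells, and asked how quiescence of neural stem cells relates to their upkeep. All cells came from male C57BL/6 mice. From the subventricular zone (SVZ), the stem cell layer along the lateral ventricle, 68 cells of a series named ogp and 65 of a series named ogp2, from mice labelled 23 months old, were sorted as positive for GLAST and CD133 and negative for CD45 and O4 (the protocol text gives an age 1 month lower). Striatum, dissected without the SVZ, gave 13 cells, and somatosensory cortex gave 4, both from mice of 25 months, sorted as positive for GLAST and negative for CD45 and O4, a gate for astrocytes. Each preparation pooled 3 or 4 mice and single cells were hand-picked without a record of the animal, which makes each tissue 1 sample. No difference was therefore tested, SDs describe the spread from cell to cell, and the 95% intervals given in brackets with shares reflect counting error alone. SVZ cells and astrocytes also differ in age, in sort gate and in the table that holds them, so their parts in any difference cannot be told apart from that of cell type.

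Values are TPM, a unit that corrects for gene length and scales the transcripts of each cell to a sum of 1000000, so read depth is unknown. The number of genes at 1 TPM or more was similar in the tissues, with a median cell at 3517 (SVZ), 3662 (striatum) or 3412 (cortex). The striatum columns carry the names OGStr (11 cells) and OStr (2 cells). In 5 ogp columns the listed genes summed to between 66189 and 309864 TPM before they were rescaled. Summed over 10 astrocyte and quiescent stem cell markers, the medians by tissue were 34279 TPM (SVZ), 37980 TPM (striatum) and 31239 TPM (cortex). At least 2 oligodendrocyte genes reached 10 TPM in 5 SVZ cells and in 0 astrocytes. Of 11 oligodendrocyte lineage markers, Mbp and Mog were under 1 TPM in every astrocyte. Yet 3 of the 11 reached 1 TPM in some striatum cell, 4 in some cortex cell and 10 in some SVZ cell. Summed over the 11, the medians were 167.5 TPM (SVZ), 170.6 TPM (striatum) and 394.9 TPM (cortex).

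Cholesterol in the brain is made locally, since lipoproteins of the blood do not cross the blood-brain barrier, and astrocytes are a main adult source. The early pathway builds isoprenoid units and joins them into squalene, and the late pathway closes the ring to lanosterol and trims it to cholesterol. When membrane sterol is low, the escort protein SCAP carries SREBP transcription factors from the endoplasmic reticulum for activation, and INSIG proteins hold the complex back when sterol is plentiful.

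The start regions of 4 members are shown because their genes stand for different patterns below: Hmgcs1 and Mvk (early) had the largest shortfalls in striatum among the early genes, while Sc5d (late) and Srebf1 (regulator) fell among the 4 lowest rank correlations with the ribosomal protein share. RefSeq promoters on build GRCm38.p6 were found for 24 of the 28 members. Each line gives the bases upstream of the transcription start on the gene's strand, outside any annotated exon, at chr13:119690101-119690350 (plus strand) for Hmgcs1, chr5:114444061-114444268 (plus) for Mvk, chr9:42264301-42264550 (minus) for Sc5d and chr11:60222582-60222831 (minus, the furthest upstream of 3 RefSeq starts) for Srebf1. Capitals mark the CCAAT box, in either direction (CCAAT or ATTGG), and the sterol regulatory element TCACNCCAC.
Hmgcs1: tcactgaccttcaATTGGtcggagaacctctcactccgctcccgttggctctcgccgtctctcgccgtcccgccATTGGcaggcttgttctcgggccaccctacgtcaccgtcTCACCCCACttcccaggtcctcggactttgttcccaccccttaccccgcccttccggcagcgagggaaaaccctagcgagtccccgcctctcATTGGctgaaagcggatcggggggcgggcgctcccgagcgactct
Mvk: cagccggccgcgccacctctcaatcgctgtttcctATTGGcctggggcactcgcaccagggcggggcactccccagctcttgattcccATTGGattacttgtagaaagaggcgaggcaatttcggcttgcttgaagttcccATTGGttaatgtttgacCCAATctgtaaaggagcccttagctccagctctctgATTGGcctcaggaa
Sc5d: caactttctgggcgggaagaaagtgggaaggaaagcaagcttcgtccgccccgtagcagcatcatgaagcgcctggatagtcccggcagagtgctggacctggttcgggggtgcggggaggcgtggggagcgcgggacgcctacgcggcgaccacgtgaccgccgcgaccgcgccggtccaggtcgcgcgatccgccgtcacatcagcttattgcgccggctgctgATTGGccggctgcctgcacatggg
Srebf1: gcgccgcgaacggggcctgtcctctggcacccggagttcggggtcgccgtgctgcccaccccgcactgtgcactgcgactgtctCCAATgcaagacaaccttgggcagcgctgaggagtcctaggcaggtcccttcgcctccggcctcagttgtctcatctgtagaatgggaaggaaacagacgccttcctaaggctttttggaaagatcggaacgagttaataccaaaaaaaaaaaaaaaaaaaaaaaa

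The strict sterol regulatory element occurred, on either strand, in the 300-base start region of Hmgcs1 alone among the 24 members, against 1.44% of 27025 genes. In Hmgcs1 its first base lies 137 bases before the start, between CCAAT boxes that begin 176 and 45 bases before it. The CCAAT box, bound by NF-Y, was found in 20 of 24 members (83.3%, against 41.1% of all genes): 9 of 9 late enzymes, 5 of 6 early enzymes and 6 of 9 regulators. GGGCGG, a GC box bound by Sp1, was found in 21 of 24 (87.5%, against 38.2%). As spelled, none of the 3 motifs contains another, and a match describes letters in this window, not a bound site.

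Striatal astrocytes had less of the early pathway transcripts than SVZ cells. The summed level of the 8 early genes averaged 408.2 TPM (SD 285.3, n = 13 cells) in striatum, with a lowest cell at 0, a median of 385.4 and a highest of 1042. In SVZ it averaged 987.7 TPM (SD 772.0), from 0 through a median of 836.6 to 3804. The ranges overlap, with 12 of 13 striatum cells below the SVZ median and 47 SVZ cells above the highest striatum cell. The log2 ratio of the means (each + 1 TPM, as throughout) was -1.27, and between -0.98 and -1.60 under the alternatives tried. It was -1.30 against only the SVZ cells with a low share of ribosomal protein transcripts, described further on.

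The 4 cortical astrocytes, in contrast, did not have low sums. Their early sums were 662.6, 1628, 1149 and 1055 TPM, 3 of them above the SVZ median. Their mean of 1124 TPM (SD 396.9) gave a log2 ratio to SVZ of 0.19, a difference smaller than the SD between SVZ cells and of changed sign (-0.05) without cortex replicate 2.

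Late pathway sums set cortex apart. They were 2839, 2508, 4847 and 1185 TPM in the cortex cells, all above the SVZ median of 895.9 TPM, and averaged 2845 TPM (SD 1514) against 1121 TPM (SD 1017; range 0.24 to 6140) in SVZ, a log2 ratio of 1.34. Leaving out 1 cortex cell at a time gave 0.96 to 1.60. In striatum the late sum averaged 702.6 TPM (SD 481.7; 155.7 to 1955, median 603.2), and 10 of 13 cells lay below the SVZ median, for a log2 ratio of -0.67. Under the alternatives tried the striatum ratio lay between -0.91 and -0.24. SVZ cells with a low share of ribosomal protein transcripts averaged 1320 TPM, above SVZ as a whole, so ratios to those cells are lower in both tissues. Of the 13 striatum cells, 11 lay below the lowest cortex cell. With only 4 cells, 1 sample, cortex cannot show how cells of other mice would fall.

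The regulators and handling genes differed less. Their sum averaged 964.5 TPM (SD 464.5; 213.3 to 2687, median 883.6) in SVZ, 699.9 TPM (SD 319.0; 163.0 to 1290, median 733.4) in striatum, and 310.9, 1079, 982.6 and 635.2 TPM in the cortex cells, with log2 ratios to SVZ of -0.46 and -0.36. Under the alternatives tried these lay between -0.81 and -0.27 in striatum and between -0.70 and -0.10 in cortex. SVZ cells with a low ribosomal protein share averaged 1099 TPM.

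**Figure D1:**
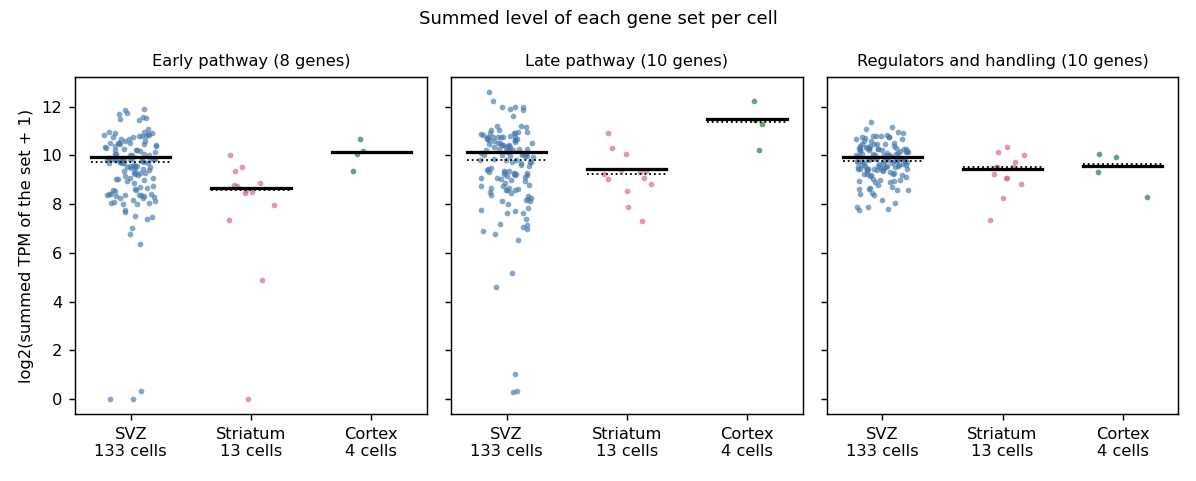
Log2 of the summed TPM + 1 of the early, late and regulator sets in each cell, with a point per cell, a solid bar at the log2 of the mean + 1 and a dotted bar at that of the median. Striatum sits low for the early set (mean 408.2 TPM against 987.7 in SVZ) and the 4 cortex cells sit high for the late set (mean 2845 TPM against 1121).

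Counted gene by gene against SVZ, 15 of the 28 members were at least 2-fold lower in striatum and 1, Hsd17b7, was at least 2-fold higher. Among all genes with 10 TPM or more in either group, 28.4% were lower and 12.3% higher by that much. The member median was -1.16 (log2), against -0.26 over those genes (27 of 28 members passed the filter). Early genes were 6 of 8 lower, late genes 4 of 10, and regulators 5 of 10.

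The early enzymes with the largest gap were Mvk, Hmgcs1 and Fdft1. Mvk, the kinase of mevalonate, was listed at 0 in all 13 striatum cells (share interval up to 24.7%), while 31.6% of SVZ cells (23.8 to 40.2) reached 1 TPM, with a mean of 46.1 TPM. Hmgcs1, which makes HMG-CoA, reached 1 TPM in 4 striatum cells (30.8%, 9.09 to 61.4) against 60.9% of SVZ cells (52.1 to 69.2), with means of 47.02 (SD 94.9) and 191.5 TPM (SD 273.2), a log2 ratio of -2.003. Both OStr cells had it, at 92.1 and 236.3 TPM, and without them the ratio was -2.85. Fdft1, squalene synthase, averaged 59.6 TPM (SD 73.7) in striatum. In SVZ its mean was 193.3 TPM (SD 205.5), with 12 of 13 striatum cells below the SVZ median of 150.5 TPM. The span of Fdft1 overlaps that of Ctsb on the opposite strand, and the span of Fdps that of Gm43738 on the same strand. Smart-seq2 does not mark strand, so reads from any exonic bases that 2 genes share could come from either. How far exons overlap is not given here.

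Fdps, farnesyl diphosphate synthase, did not follow: 123.8 TPM (SD 145.9) in striatum against 133.6 TPM (SD 224.6) in SVZ, at 46.2% and 40.6% of cells. Acat2, the cytosolic thiolase, was at 44.4 and 75.6 TPM. Its near copy Acat3 was at 16.6 and 39.5, and reads could be split between them. Pmvk, Mvd and Idi1, which finish and isomerise the isoprenoid units, were at 39.95, 36.4 and 57.01 TPM in striatum against 95.8, 84.7 and 167.0 in SVZ.

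Among late enzymes, the gap was widest for Cyp51, lanosterol demethylase. It reached 1 TPM in 1 striatum cell, at 54.04 TPM, against 37.6% of SVZ cells with a mean of 41.9 TPM (SD 70.1), and overlaps Akap9 on the opposite strand. Sqle, which oxidises squalene, averaged 43.7 TPM in striatum and 114.4 in SVZ. Dhcr7, the final reductase, averaged 26.95 and 78.2 TPM. Msmo1, which removes methyl groups, was the member with the highest mean in every tissue and held 52.8%, 58.4% and 54.5% of the late sum in SVZ, striatum and cortex. Its mean was 410.5 TPM (SD 412.7) in striatum against 592.1 TPM (SD 722.4) in SVZ, reaching 1 TPM in 84.6% and 85.7% of cells. Hsd17b7 was higher in striatum at 36.98 TPM (SD 53.8; 6 of 13 cells) than in SVZ at 17.7 TPM (SD 47.8; 18.8% of cells).

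Within the regulators, Srebf2 and Insig1 were lower in striatum and Srebf1 was not. Srebf2, the factor known for activating cholesterol genes, averaged 19.4 TPM (SD 25.5; lowest 0, median 13.4, highest 72.8) in striatum, and all 13 cells lay below the SVZ median of 73.6 TPM (mean 97.2, SD 93.3). That is a log2 ratio of -2.26. Insig1, itself a classic target of these factors, averaged 47.9 TPM (SD 79.7) and 182.8 (SD 217.9), at -1.91. Srebf1, whose product favours fatty acid genes, averaged 341.9 TPM (SD 285.3) and 334.8 (SD 248.0) and was at 1 TPM or more in all 13 and 96.2% of cells, a log2 ratio of 0.03. It overlaps Rai1 on the opposite strand. Scap averaged 8.06 and 26.3 TPM. The rest of the regulators averaged 68.3 TPM in striatum against 43.2 in SVZ for Insig2, 113.99 against 130.8 for Soat1, which esterifies cholesterol for storage, 45.9 against 60.1 for the sterol sensor Nr1h2, and 54.4 against 72.2 for Cyp46a1, which hydroxylates cholesterol for its exit from the brain. Nr1h3 was listed at 0 in every astrocyte and reached 1 TPM in 9.02% of SVZ cells. Stard4, a carrier of cholesterol, was listed at 0 in every striatum cell and reached 1 TPM in 6 SVZ cells.

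**Figure D2:**
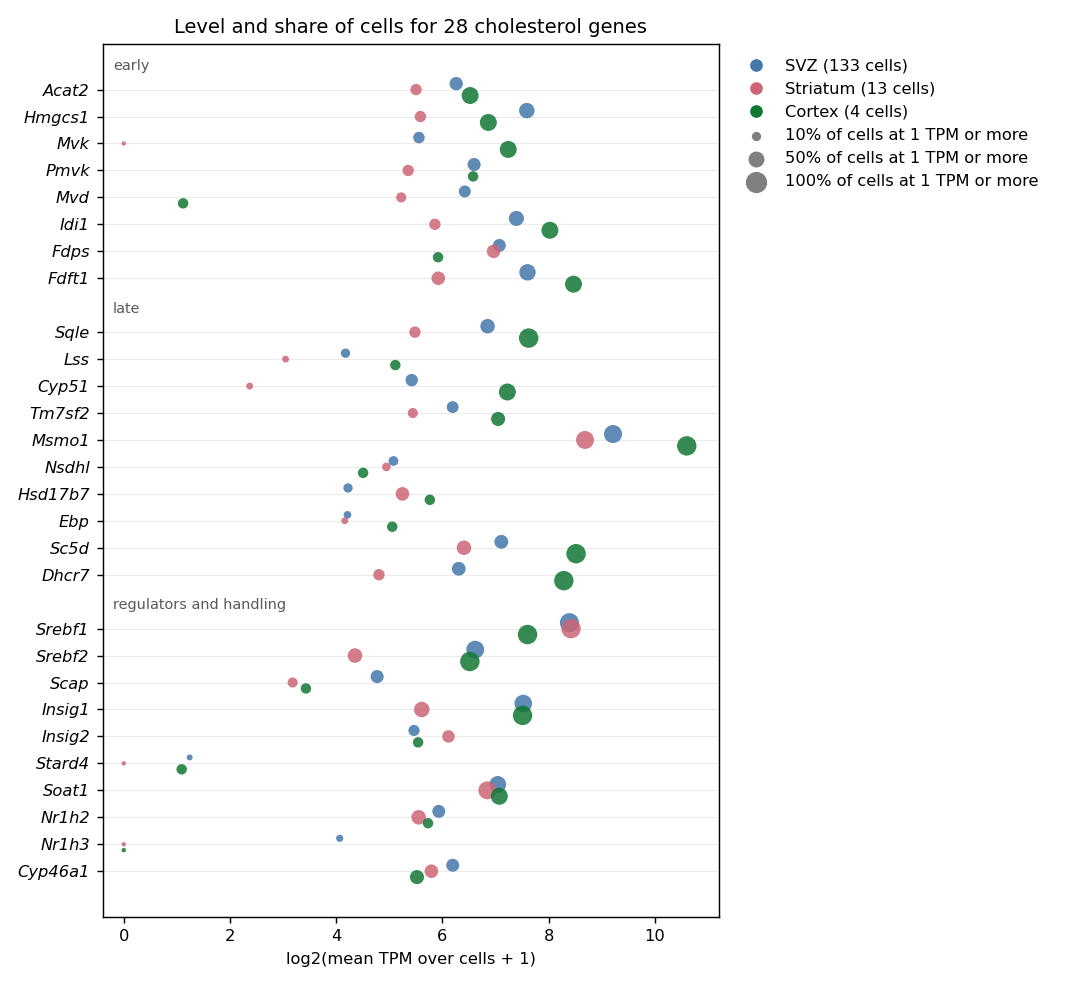
Log2 of the mean TPM + 1 of each of the 28 genes on the horizontal axis, in SVZ, striatum and cortex, with the area of a dot growing with the share of cells at 1 TPM or more. Striatum lies left of SVZ for most early genes, Msmo1 is the strongest gene in all 3 tissues, and Srebf1 lies at the same level in SVZ and striatum.

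Cortex was higher than SVZ by at least 2-fold for Mvk, Cyp51, Msmo1, Hsd17b7, Sc5d and Dhcr7, and lower for Mvd, Fdps, Scap and Nr1h3. That is 6 and 4 members against 20.8% and 43.4% of genes with 10 TPM in either group, so the count higher was near the share of all genes. Among genes with 10 TPM in both groups, 25.5% were higher and 11.7% lower, beside 6 and 1 of 24 members. Several of the named differences rest on 1 cell: the log2 ratio of Msmo1 was 0.63 without replicate 3, that of Cyp51 0.97 without replicate 2 and that of Sc5d 0.97 without replicate 1, all under 2-fold. Mvk stood at 1.04 without replicate 3. Fdps was at -0.75 without replicate 1, 2 or 4 and at -7.07 without replicate 3, and Scap at -0.96 without replicate 1, 3 or 4 and at -4.77 without replicate 2, and Mvd at -6.42 without replicate 1. Dhcr7 was at 477.9, 206.2, 364.4 and 196.1 TPM, each above its highest striatum cell at 188.1, and averaged 311.2 TPM (SD 135.2) against 78.2 (SD 135.5) in SVZ, a log2 ratio of 1.98. Sc5d, a desaturase, was at 650.2, 78.2, 547.3 and 184.9 TPM (mean 365.2) against a mean of 137.0 in SVZ. Msmo1 was at 924.2, 1593, 3448 and 241.5 TPM. In all 4 cells Dhcr7, Sc5d, Msmo1 and Sqle were present, at or above 1 TPM.

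Mvk was at 30.4, 0, 312.3 and 257.6 TPM in the cortex cells, and Cyp51 at 172.7, 344.4, 76.3 and 0. Hsd17b7 was at 213.2 TPM in cortex replicate 3 and 0 in the others, and without that cell the difference changed sign. Scaled by the median ratio to SVZ of the 4877 genes with 10 TPM or more in both groups, cortex moves by 0.34 (log2), and the late ratio of 1.34 becomes 1.00. The 10 late enzymes had a member median of 1.16, and the 28 members 0.05, against -0.49 for all genes with 10 TPM in either group and 0.33 for those with 10 TPM in both.

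Striatum against cortex, tissues of the same age label and sort, gave 16 members at least 2-fold lower and 2 at least 2-fold higher in striatum, Mvd and Fdps. Of all genes with 10 TPM or more in either tissue 28.9% were lower and 38.3% higher, and of those with 10 TPM in both 29.04% were lower and 11.1% higher. The member median was -1.16, against 0.10 in the first background and -0.39 in the second. With cortex replicate 2 left out 6 members were higher, and with replicate 3 left out 4.

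In SVZ, the share of TPM held by 82 cytosolic ribosomal protein genes varied from 0.659% to 14.9% of a cell's total, with a median of 1.82%. The share was under 3% in 46 ogp and 55 ogp2 cells (low-ribosome) and 6% or more in 15 ogp and 6 ogp2 cells (ribosome-rich), with 11 cells in between. Of all these, 11 cells lay within 0.5 points of the lower limit and 4 of the upper. These are ranges of a score, not cell types. Ribosome-rich cells had a median of 6326 genes at 1 TPM or more against 3250 in low-ribosome cells, and 11 of them had at least 3 mitosis markers against 0 low-ribosome cells. The sum of the 10 astrocyte markers had medians of 1832 and 37706 TPM in rich and low cells, that of the 9 activation markers (of which Rpl32 is a ribosomal gene) 5242 and 562.9 TPM, and the part of these in the values below was not tested.

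The summed late enzymes and regulators were lower at higher ribosomal shares, while the summed early enzymes showed no such relation. The early sum had a Spearman rank correlation over all SVZ cells of -0.05, the late sum -0.45 and the regulators -0.55. The late value does not describe most of its members: 5 of the 10 late enzymes had a positive and 5 a negative rho, with a median of -0.0025, and only Msmo1, which holds 52.8% of the late sum, and Sc5d were at -0.2 or less. Nor does the regulators' value: 4 of the 10 had a positive and 6 a negative rho, with a median of -0.097. Only Srebf1, which holds 34.7% of their sum, and Soat1 were at -0.2 or less, and 1 was at 0.2 or more. Cells share library depth and the fixed sum of TPM, so the values are given as description. Scaling to non-ribosomal genes gave -0.02, -0.44 and -0.52, and holding the number of genes detected fixed gave -0.14, -0.38 and -0.40. In the ogp series the values were 0.06, -0.50 and -0.60, and in ogp2 -0.00, -0.29 and -0.44. Within low-ribosome cells they were -0.02, -0.21 and -0.25.

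The mean levels in the 3 ranges were as follows. The late sum averaged 1320 TPM (SD 1073) in low-ribosome cells, 603.4 (SD 430.0) in the intermediate and 433.8 (SD 360.9) in rich cells, with 20 of 21 rich cells below the low-cell median of 1157 TPM. The regulators' sum averaged 1099, 550.6 and 535.6 TPM. The early sum averaged 1008, 1212 and 773.9 TPM, with 12 of 21 rich cells below the median of low cells. The log2 differences of rich from low were -1.60 late, -1.04 regulators and -0.38 early, the last being 0.04 in ogp and -0.63 in ogp2.

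**Figure D3:**
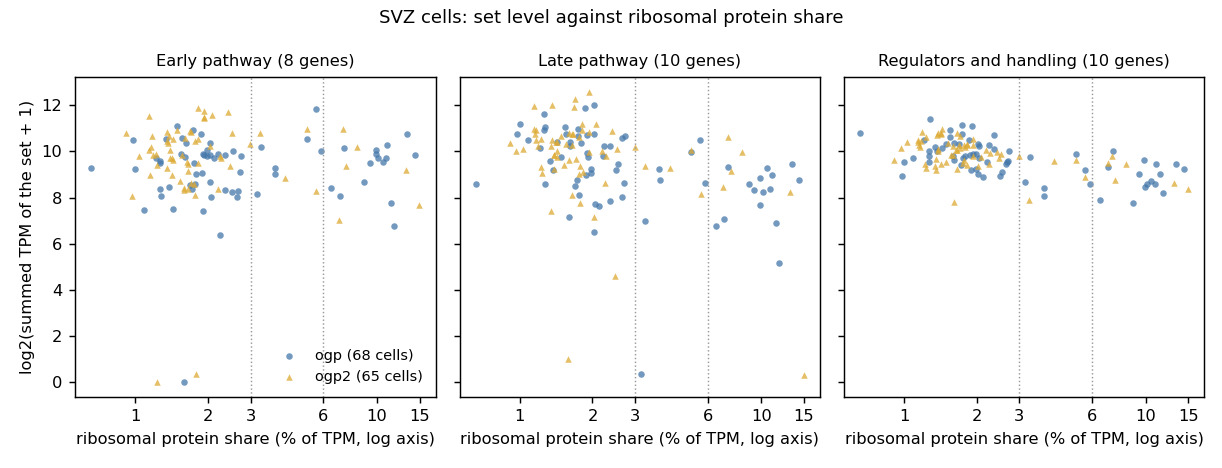
Log2 of the summed TPM + 1 of each set against the ribosomal protein share of each SVZ cell (log axis), with ogp and ogp2 cells as circles and triangles and dotted lines at 3% and 6%. The early set shows no slope (rho -0.05), while the late set (-0.45) and the regulators (-0.55) lie lower at high shares.

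Msmo1 and Srebf1 had the most negative correlations of the 28 genes. Msmo1 averaged 730.9 TPM (SD 774.6, median 535.6) in low-ribosome cells and 141.3 (SD 172.4, median 75.98) in rich cells, with rho -0.44, and 20 of 21 rich cells lay under the low-cell median. Without Msmo1 the late correlation was -0.28 and the difference -1.01. Srebf1 averaged 402.7 TPM (SD 236.4, median 388.6) and 95.3 (SD 101.4, median 74.2), with rho -0.49 and all 21 rich cells under the low-cell median. Without it the regulators stood at -0.36.

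Soat1 averaged 159.5 TPM in low and 27.97 in rich cells (rho -0.29) and Sc5d 167.9 and 25.4 (rho -0.24). Those 4, Msmo1 and Srebf1 included, had a rho of -0.2 or less; Acat2, Hmgcs1, Mvk and Stard4 had one of 0.2 or more. That is 4 and 4 members against 6.14% and 39.2% of 8203 genes, and a member median of 0.00 against 0.15. Acat2 (rho 0.22) went to -0.062 with the number of genes held fixed, Mvk (0.26) to 0.11, Hmgcs1 (0.20) to 0.05 and Stard4 (0.27) to 0.20.

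**Figure D4:**
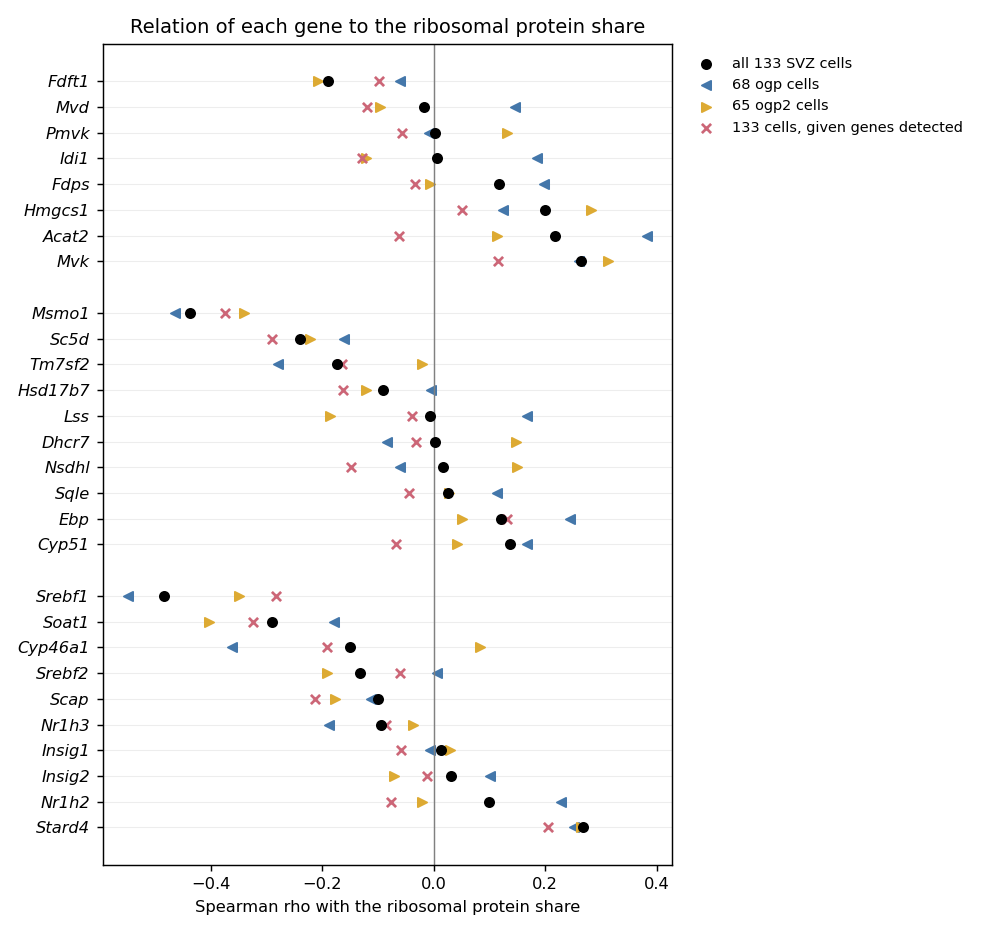
Spearman rho of each gene with the ribosomal protein share of SVZ cells, for all cells, each series and with the number of genes detected held fixed; early genes at the top, late in the middle and regulators at the bottom. Msmo1, Sc5d, Srebf1 and Soat1 are negative in all 4 measures, as are Fdft1, Tm7sf2, Hsd17b7, Scap and Nr1h3, which lie nearer 0 over all cells. The early genes spread around 0, with 6 of 8 below it when the number of genes detected is held fixed.

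Shares of cells and mean levels were then set side by side. Among the 28 members, 20 were at 1 TPM or more in a larger share of rich than of low cells (82.9% of 8203 genes were), and 14 of those 20 had the lower mean in rich cells, beside 39.7% of the 6798 genes with the larger share in rich cells. The number of genes per cell moves with these shares, and its part was not tested. Acat2 was found in 80.95% of rich cells (58.1 to 94.6) and 36.6% of low cells (27.3 to 46.8), with means of 117.8 and 60.5 TPM. Cyp51 was found in 71.4% (47.8 to 88.7) and 31.7% (22.8 to 41.7), with means of 58.97 and 37.8 TPM. Mvk was found in 52.4% and 26.7%, yet averaged 29.2 TPM in rich and 50.4 in low cells.

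Among cells where the gene was at 1 TPM or more, the median level of 27 of 28 members was lower in rich cells, as was that of 84.2% of 8039 genes, so this is a shift that most genes shared. The exception was Insig1, 192.5 TPM against 139.6. Mvk had 43.9 against 184.9, and Fdps 151.5 against 312.7. Early enzymes detected per cell had a median of 6 in rich and 3 in low cells, and late enzymes 4 in both. Genes of any kind detected per cell had medians of 6326 and 3250. From low to rich cells, the share at 1 TPM or more differed by a median of 18.6 points over early and 12.2 over late enzymes. Over all 8203 genes it differed by 26.3 points, so the early rise was smaller than that of the median gene. In means, 13 members were at least 2-fold lower in rich cells, 1 (Stard4, 4.76 against 0.802 TPM) at least 2-fold higher, against 23.1% and 26.8% of all genes. Averaged as logs over members, a scale that weighs detection more, the rich-minus-low difference was 0.99 early, -0.16 late and -0.24 for regulators, so the early direction depends on the scale. No value over all genes on that scale is given beside them.

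**Figure D5:**
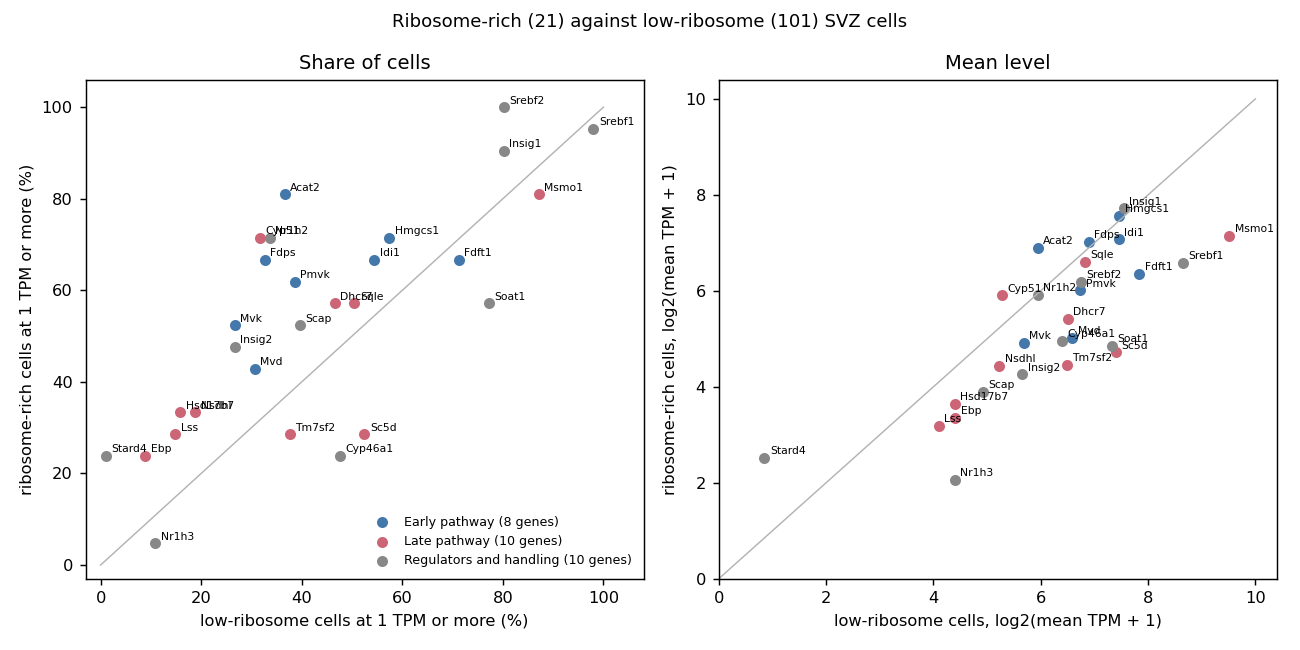
Each of the 28 genes in ribosome-rich against low-ribosome SVZ cells, as the share of cells at 1 TPM or more (left, %) and as log2 of the mean TPM + 1 (right), with the line of equality. In the left panel 20 of 28 genes lie above the line, and in the right panel 6 of 28.

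Among themselves, SVZ cells showed weak joint variation of the enzymes, in sparse data where weak values say little. The median rank correlation was 0.16 over 28 early pairs, 0.12 over 80 early-late pairs, 0.07 over 45 late pairs and 0.03 over 36 regulator pairs (without Stard4, which averaged under 10 TPM), beside 0.04 over all pairs of 8283 genes. Hmgcs1 and Fdps, 0.41, were the closest pair. The early and late sums correlated at 0.47, and at 0.44 within low-ribosome cells. Oligodendrocyte marker sums had correlations of 0.01, -0.09 and -0.09 with the early, late and regulator sums.

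The 51 other genes of sterol and lipid handling included branch, uptake, transport and export genes. In striatum against SVZ 4 were at least 2-fold higher and 14 lower, beside 12.3% and 28.4% of all genes. In cortex against SVZ 7 were higher and 22 lower, beside 20.8% and 43.4%, so the shares of lower genes were near those of all genes. In rich against low cells 4 were higher and 18 lower, beside 26.8% and 23.1%. Of the 10 fatty acid synthesis genes 7 were lower, and Acly, which supplies cytosolic acetyl-CoA, was higher (log2 1.02). Of the 51, 11 had a rho with the ribosomal share of 0.2 or more and 5 of -0.2 or less, beside 39.2% and 6.14% of all genes. Elovl5, an elongase of polyunsaturated fatty acids, was the strongest of the 51 in SVZ at 559.0 TPM (SD 429.1), and averaged 690.2 in low and 140.3 in rich cells (rho -0.62). Scd2, Fads2 and Scp2 averaged 478.6, 427.0 and 384.7 TPM in SVZ. Npc1, which moves cholesterol out of lysosomes, averaged 72.995 TPM in low and 11.4 in rich cells, and Cyp7b1, an oxysterol hydroxylase, 98.7 and 16.2. Abca1, an exporter of cholesterol, averaged 54.3 TPM in SVZ and 65.3 in striatum and was listed at 0 in all 4 cortex cells, as were Stard3, Dhdds and Mbtps1. In that order, these 4 genes reached 1 TPM in 73.7%, 25.6%, 30.1% and 25.6% of SVZ cells. A share of 0 among 4 cells has an interval up to 60.2%, so absence from cortex is not shown. Fads1 averaged 221.7 TPM in SVZ and 73.5 in striatum, and Rnf139, a ubiquitin ligase, 15.9 and 62.05.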

How the data were processed

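Single-cell values were analysed in 150 columns, each mapped to a sample by its title, and 18 bulk libraries have no values here and were not used. The deposited values are TPM, read as such from their sums and decimals. Per the submitters' processing notes the tools were STAR 2.4.0g1 and RSEM 1.2.18, with build mm10, while the annotation is not given in the sources used here. Where identifiers shared a symbol, that with the highest mean was kept, and each column was rescaled to 1000000 TPM. Of all columns, 0 were identical to another. Each tissue or cell range was compared as log2 of (mean TPM + 1), with 1 TPM as limit of detection and 10 TPM in either group as filter for the background only. Shares carry exact Clopper-Pearson 95% intervals (scipy 1.17.1). Tables were made with pandas 2.3.3 and numpy 2.4.6, and the calculations were first tested on simulated data. Read depth is unknown, and with 1 sample a tissue nothing was tested. All 28 members are named, and other genes were named by the 4 highest means in SVZ and the 4 largest folds per comparison among those of at least 20 TPM; of the latter, a subset is printed. Members and lists were chosen with earlier results of these data known. Promoters are from RefSeq, exons and positions from GENCODE on GRCm38. Alternatives are given in the closing section.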

Additional observations from a re-analysis of the deposited data

Results flagged for a closer look

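In the 4 cortex cells, 29 sets and members were looked at for a cell far from the others, and 11 were found where the gap to the nearest cell, divided by the range, passed Dixon's 95% limit. The limit is used here only to pick cells out: the usual rate of about 1 in 20 by chance does not hold for values with many zeros, and the cells are of 1 sample. Hmgcs1 had 3 cells between 151.9 and 156.6 TPM and cortex replicate 4 at 0, a gap ratio of 0.970. The other 10 had a ratio of 1, because a single cell had the transcript and the rest were listed at 0. These were Pmvk at 378.0 TPM, Insig2 at 182.4, Nr1h2 at 208.2 and Scap at 39.1, all in replicate 2, Fdps at 237.8 and Hsd17b7 at 213.2 in replicate 3, Lss at 134.4, Ebp at 129.03 and Mvd at 4.68 in replicate 1, and Nsdhl at 86.9 in replicate 4.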

How the results depend on the processing

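No paired analysis was possible because the animal of each cell was not recorded and no number pairs the cells of the tissues. No comparison between groups was tested. Of the values for sets and counts under alternatives, 150 moved by less than 1.5-fold (0.15 in a correlation) and 29 by more. Of single members 287 stayed, 39 moved and 2 changed sign, Hsd17b7 in cortex against SVZ (-4.22 without cortex replicate 3, and up to 1.95 without another) and Acat2 with the ribosomal share (-0.062 given the number of genes detected). Averaging logs over members gave correlations of 0.20 early, -0.11 late and -0.20 for regulators, and rich-to-low differences of 0.99, -0.16 and -0.24, with no value over all genes on that scale. Correlations were also -0.29 late in ogp2 cells, -0.21 late and -0.25 regulators in low-ribosome cells, -0.28 late without Msmo1 and -0.36 for regulators without Srebf1, and the late rich-to-low difference without Msmo1 was -1.01; the low-ribosome subset and both gene removals were chosen after seeing the data. At a 4-fold limit 0 members were higher and 5 lower in striatum against SVZ, and 0 and 2 in cortex against SVZ. The counts were 1 and 9 in striatum against cortex, and 0 and 6 in rich against low cells. Of all genes with 10 TPM in either group, 3.615% were higher and 15.48% lower in the first comparison. In that order, the others had 7.709% and 36.82%, 32.09% and 15.92%, and 10.95% and 10.44%. The count lower in striatum against SVZ was thus near the share of all genes. In cortex against SVZ it was below that share, and in the remaining comparisons above it. The count higher in striatum against SVZ was 0 with OGStr, ogp2 or low-ribosome cells alone. Against ogp cells alone 11 were higher in cortex, and in ogp2 cells alone 3 were higher in rich cells. Leaving out each cortex cell gave 4 to 7 lower in cortex against SVZ (7 without replicate 2 or 3) and 3 to 6 higher in striatum against cortex. The cause of these shifts was not tested, and shares over all genes are not given for these subsets. Median-ratio scaling, over genes with 10 TPM or more in both groups, shifted striatum by -0.09 and cortex by 0.34 (log2). Unknown read depth limits all shares of cells at 1 TPM.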
